A study of Artemisia argyi with 3 samples.

Results

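A total of 202 unigenes of *Artemisia argyi* had FPKM values in leaf and in stem that were both more than 8 times the value in root. They were chosen by that rule, with FPKM taken as deposited and no pseudocount, among the 24,505 unigenes with FPKM > 1 in each of leaf, root and stem, here called shared unigenes. They make up 0.824% of the shared unigenes and come from a table of 88,591 unigenes. A pair of further unigenes that the selection was set to leave out did not meet the rule, so no unigene was removed. The fold over root therefore describes how the unigenes were picked and is not a finding, and it is given without a test.

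*A. argyi* is a perennial mugwort of the Compositae whose leaves are used for moxibustion. Whole mature plants were separated into leaves, roots and stems, the tissue of 5 plants was pooled, and 1 library was sequenced per tissue. No treatment or genotype was compared, and the study set leaf against the other tissues in search of genes of terpenoid synthesis. FPKM, the number of fragments per kilobase of unigene scaled to the mapped fragments of the library, corrects for unigene length and for depth. Where several values of a unigene follow each other without a tissue name, they are in the order leaf, stem, root. With 1 library per tissue there was no replicate, so every difference below is between libraries and carries no standard deviation and no p-value.

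Leaves and green stems form the shoot, which carries out photosynthesis, while roots live on the sugar that the shoot exports and take up water and minerals. In the genus *Artemisia* the aerial surfaces also carry glandular trichomes, small secretory structures in which volatile terpenoids are made and stored. Terpenoid precursors come from the mevalonate pathway of the cytosol and the MEP pathway of the plastid. The expression table pairs none of the 202 unigenes with a gene name, so no function is assigned to any of them here, and their sequences were not analysed. For the same reason the tissue labels could not be checked against marker genes. In pooled tissue, fewer cells of a type and less RNA per cell cannot be told apart.

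The libraries were of like depth. Low FPKM values rise in steps of 1 fragment, and over the unigenes between 0.2 and 0.5 FPKM in both libraries the most frequent ratio put the root library at 1.06 times the depth of leaf, and the stem library at 1.01 times. The scaling of the libraries was less settled. Median-ratio scaling, which assumes that most unigenes above 0 in every tissue are unchanged, shifted all log2 ratios of leaf to root by -0.64 and those of stem to root by -0.62, against a shift of -0.02 for leaf to stem. Rescaling each library to a sum of 1,000,000 (TPM) shifted them by -0.12, -0.10 and -0.03.

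The 202 unigenes were abundant in the shoot and close to the 1 FPKM minimum in root. In leaf they ranged from 9.69 to 3889 FPKM, with a median of 72.9. In stem they ranged from 8.23 to 1421 FPKM, with a median of 41.2. In root the range was 1.01 to 67.3 FPKM and the median 2.065, and 98 of the 202 (48.5%) were at or below 2 FPKM there. The rule itself sets a floor of 8 FPKM in leaf and stem, and it holds root below the smaller shoot value divided by 8. Over the 9,599 unigenes above 8 FPKM in both shoot tissues and above 1 FPKM in root, which are those that could have met the rule, the medians were 24.2 FPKM in leaf and 23.8 in stem, against 16.1 in root. Of the 202, 21 exceeded 10 FPKM in root, 82 exceeded 100 FPKM in leaf and 59 did so in stem. This contrast between root and shoot is largely set by the rule, and the same counts over the 9,599 were not made.

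**Figure D1:**
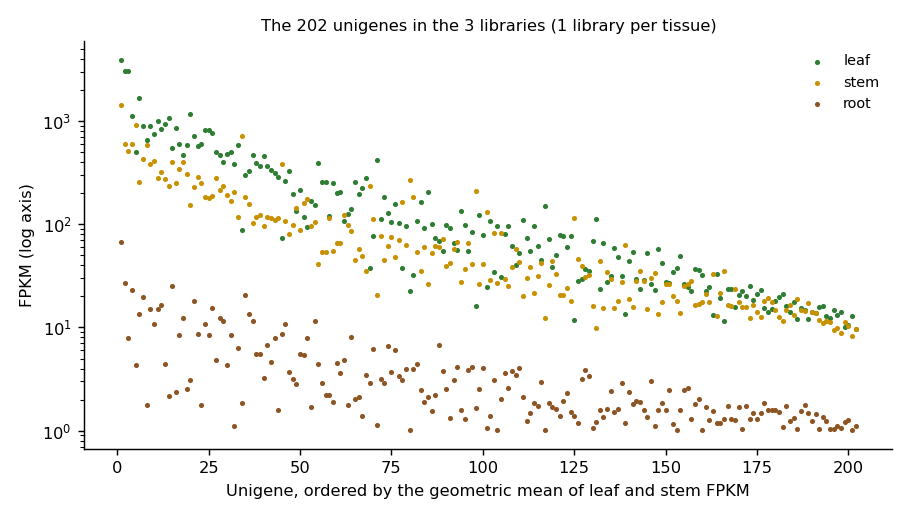
FPKM (log axis) of each of the 202 unigenes in the leaf, stem and root libraries, 1 point per library, with the unigenes ordered from left to right by the geometric mean of their leaf and stem values. Root values stay between 1.01 and 67.3 FPKM, and the leaf points lie mostly above the stem points at the abundant end.

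Together these unigenes held 6.38% of the FPKM sum of the leaf library, 2.89% of that of stem and 0.126% of that of root. The corresponding sums were 47,523 FPKM in leaf, 21,174 in stem and 862 in root, so that leaf exceeded stem 2.24-fold. Of the 100 most abundant unigenes of the leaf library 24 belonged to the 202 and 6 of the 100 most abundant in stem. The 202 make up 0.824% of the shared unigenes and 2.10% of the 9,599 that could have met the rule. Since the rule favours high values in leaf and stem, these counts are partly set by it. A high rank in root was barred by the rule.

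The most abundant was CL7081.Contig1, which had 3889 FPKM in leaf and 1421 in stem, against 67.3 in root. It ranked 2 in leaf and 12 in stem among all unigenes of the table. Unigene20193 followed with 3058 FPKM in leaf and 601 in stem, against 26.7 in root, and CL7271.Contig1 with 3048, 515 and 7.97. These 3 unigenes contributed 21.0% of the leaf sum of the 202 and 12% of their stem sum. Their leaf values lay 2.74, 5.09 and 5.92 times above the stem values. CL1311.Contig3 had 1125 FPKM in leaf and 600 in stem, against 23.1 in root, and Unigene8994 had 1669, 254 and 13.4. CL12567.Contig1 was the exception among the 6 most abundant, with 504 FPKM in leaf and 913 in stem, against 4.32 in root, so that stem was 1.81 times leaf. Abundance in the shoot went with a higher level in root as well. CL7081.Contig1 and Unigene20193 also had the highest root values of the 202, followed by Unigene5356 with 542 FPKM in leaf and 396 in stem, against 24.9 in root. Spearman's rho across the 202 unigenes was 0.69 between leaf and root and 0.73 between stem and root. These unigenes share their libraries, and the rule ties a higher root value to higher leaf and stem values, so the coefficients are descriptive.

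The fold over root was larger for leaf than for stem. The median ratio of leaf to root was 26.1, within a range of 8.07 to 490, and that of stem to root was 16.7, within a range of 8.0 to 387. Leaf was more than 64 times root for 49 unigenes and stem for 15. Taking for each unigene the smaller of its ratios to root, here called the smaller fold, the median was 13.7. It lay at 10 or below for 56 of the 202, above 16 for 84, above 32 for 24 and above 64 for 9. The largest smaller fold was that of Unigene750, with 655 FPKM in leaf and 583 in stem, against 1.76 in root, or 372 and 331 times root. Unigene9196 had 382 FPKM in leaf and 203 in stem, against 1.1 in root, a smaller fold of 185. CL10230.Contig3 had 599, 252 and 1.78 FPKM, a smaller fold of 142, and Unigene5662 had 583, 307 and 2.55 FPKM, a smaller fold of 120. CL12567.Contig1, described above, came next with 117. In all 5 of these unigenes the root value was below 5 FPKM, so the size of the ratio rested on a low denominator whose counting error is unknown.

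**Figure D2:**
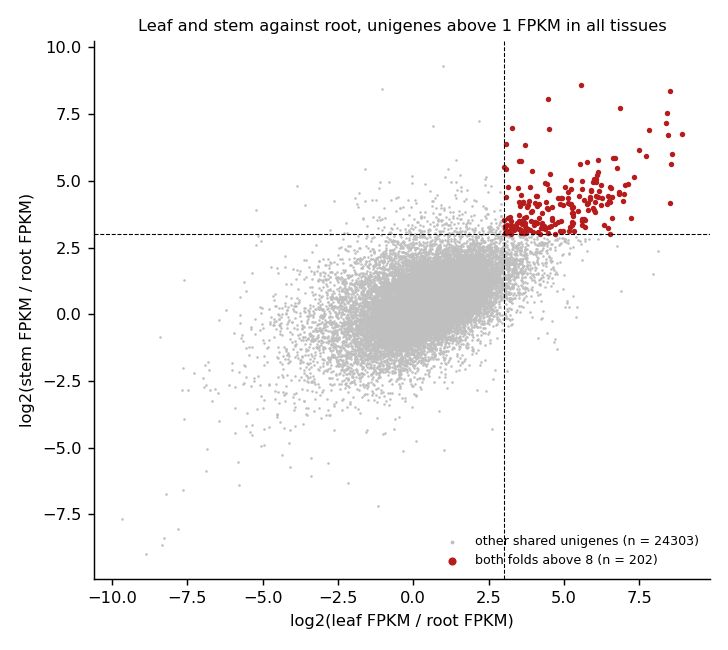
Log2 ratio of leaf to root (horizontal axis) and of stem to root (vertical axis), without a pseudocount, for all shared unigenes. Dashed lines mark the 8-fold threshold on each axis, the 202 unigenes past both lines are red, the other 24,303 are grey, and no gap separates the red points from the grey ones.

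No gap separated the 202 from the unigenes just below the thresholds. Just inside the 8-fold line were CL9130.Contig1, with 43.7 FPKM in leaf and 19.1 in stem, against 2.38 in root, Unigene5348 with 156, 48.2 and 6.0, and Unigene15466 with 36.8, 31.0 and 3.86. Their smaller folds were 8.0, 8.04 and 8.04. Just outside were CL5697.Contig2, with 84.8 FPKM in leaf and 9.27 in stem, against 1.16 in root, CL4228.Contig1 with 16.1, 9.34 and 1.17, and Unigene17184 with 85.9, 32.4 and 4.06, with smaller folds of 7.99, 7.98 and 7.98. In all 6 the stem ratio was the smaller one. The threshold on the root value itself was equally sharp. CL11191.Contig1, Unigene4116 and CL12918.Contig3 were retained at 1.01 FPKM in root. Unigene16986, at 0.99 FPKM in root with 16.8 in leaf and 8.19 in stem, was not, nor were CL5757.Contig3, Unigene1071 and Unigene22938, each at 0.98.

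The requirement of FPKM > 1 in root left out other unigenes with the same folds. With the minimum lowered to 0 in every tissue, in leaf and stem as well as in root, 1,589 unigenes were more than 8-fold lower in root. Any unigene that meets the rule must exceed 8 FPKM in both leaf and stem, and 9,803 unigenes of the table did so. Of these 9,803, 406 were more than 8 times root in both tissues. They comprised the 202 described here, 190 with a root value above 0 and at most 1 FPKM, and 14 listed at 0 in root. With leaf and stem above 8 FPKM, any root value of at most 1 FPKM passes both folds by arithmetic. The 190 and the 14 therefore show only what the filter on root removed. Among the 9,599 that could have met the rule, the 202 made up 2.10%.

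Within the shoot, the 202 unigenes leaned towards leaf. Leaf exceeded stem in 159 of them (78.7%) and stem exceeded leaf in 43. The same comparison gave leaf as the higher tissue for 53.2% of the shared unigenes and for 56.1% of the 9,599 that could have met the rule. The median log2 ratio of leaf to stem was 0.77 in the 202, against 0.07 in the shared unigenes and 0.11 in the 9,599. Leaf was at least 2-fold above stem for 84 of the 202 (41.6%), with a background of 17.1% in the shared unigenes and 14.7% in the 9,599. Stem was at least 2-fold above leaf for 14 (6.93%), with backgrounds of 17.7% and 12.1%. The remaining 104 were within 2-fold. The rule read both values, so this contrast is not independent of it, and with single libraries the difference from the background was not tested. TPM and median-ratio scaling shift the log2 ratio of leaf to stem by only -0.03 and -0.02, so they put the lean to no test.

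**Figure D3:**
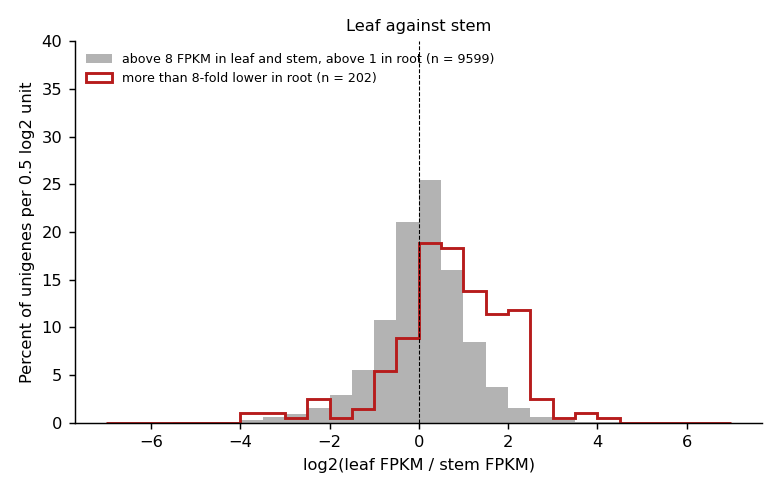
Distribution of the log2 ratio of leaf to stem FPKM, as the percent of unigenes per bin of 0.5, for the 202 unigenes (red line) and for the 9,599 unigenes that exceed 8 FPKM in leaf and stem and 1 FPKM in root (grey, the 202 included). The red distribution is shifted to the leaf side, with a median of 0.77 against 0.11, and is broader on that side.

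At the ends of this distribution, 1 shoot tissue was about 8 to 20 times above the other. CL12502.Contig2 had the largest ratio of leaf to stem, with 419 FPKM in leaf and 20.6 in stem, against 1.13 in root, a ratio of 20.4. CL11191.Contig1 had 151, 12.2 and 1.01 FPKM, Unigene4987 had 111, 9.80 and 1.21, and Unigene711 had 388, 41.3 and 4.42. Leaf exceeded stem by 12.3, 11.4 and 9.40 times in these. On the stem side, Unigene31758 had 16.1 FPKM in leaf and 209 in stem, against 1.65 in root, so that stem was 12.9 times leaf. Unigene4116 had 22.6, 269 and 1.01 FPKM, CL9023.Contig2 had 11.8, 115 and 1.40, and Unigene9474 had 88.5, 720 and 1.86. The ratios of stem to leaf were 11.9, 9.73 and 8.13. Unigene9474 had the largest ratio of stem to root of the 202, at 387. The most even were Unigene3385, with 9.69 FPKM in leaf and 9.68 in stem, against 1.11 in root, and CL6752.Contig4, with 14.1, 14.0 and 1.24. At least 4-fold differences were found for 33 unigenes on the leaf side (16.3%) and 10 on the stem side (4.95%). The backgrounds were 3.49% and 6.87% of the shared unigenes, and 2.55% and 3.66% of the 9,599.

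The ratio of leaf to stem was also compared between levels of abundance. When the 202 were divided into 4 groups of like size by the geometric mean of leaf and stem FPKM, the median log2 ratio of leaf to stem was 0.24 in the group of lowest abundance, 0.63 and 0.86 in the middle ones and 1.29 in the highest. Leaf was at least 2-fold above stem in 6 of 51, 23 of 50, 22 of 50 and 33 of 51 unigenes, and stem at least 2-fold above leaf in 2, 4, 6 and 2. The median smaller fold over root was 9.43, 11.4, 15.8 and 21.9 in these groups, and the median root value was 1.31, 1.77, 3.01 and 7.97 FPKM. Part of this order is set by the rule, since a unigene of low abundance can only enter with a root value near 1 FPKM, a fold near 8 and leaf and stem values close to each other. Over the 9,599 unigenes split at the same levels, the median log2 ratio of leaf to stem was 0.09, 0.11, 0.17 and 0.36, and leaf was at least 2-fold above stem in 9.71%, 17.8%, 21.1% and 27.9%. No test of a trend was made.

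The same lean appeared along the range of folds below the threshold. Among the 9,599 unigenes, the median log2 ratio of leaf to stem was -0.13 in the 3,758 with a smaller fold of at most 1. It was 0.16 in the 3,605 between 1 and 2, 0.17 in the 1,612 between 2 and 4, and 0.40 in the 422 between 4 and 8. Within the 202 it was 0.50 in the 118 between 8 and 16, 1.11 in the 60 between 16 and 32, and 0.92 in the 24 above 32. The median thus moved towards leaf from band to band up to a smaller fold of 32 and not beyond it. The share at least 2-fold higher in leaf was 29.4% between 4 and 8, 35.6% between 8 and 16, 55.0% between 16 and 32, and 37.5% above 32. In the same bands, the share at least 2-fold higher in stem was 3.79%, 9.32%, 3.33% and 4.17%. The bands were built from the same leaf and stem values as the ratio, so they are not independent of it.

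Unigenes are of 2 kinds in this assembly, contigs of a cluster of similar sequences (prefix CL) and singletons (prefix Unigene). Singletons were more frequent among the 202 than among the other unigenes. They numbered 121 of the 202 (59.9%), against 39.0% of the shared unigenes and 40.8% of the 9,599. By bands of the smaller fold their share was 38.7% up to 1, 40.7% from 1 to 2, 42.4% from 2 to 4, 43.8% from 4 to 8, 55.1% from 8 to 16, 68.3% from 16 to 32 and 62.5% above 32. Of the 238 shared unigenes more than 8-fold lower in leaf than in root and stem, 42.0% were singletons. This difference was not tested. The median smaller fold was 14.5 for the singletons and 12.3 for the contigs among the 202.

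The other 81 unigenes were contigs of 65 clusters, which have 227 contigs in the table. Single contigs met the rule in 50 of these clusters, 2 contigs in 14 clusters and 3 in 1 cluster, and in 5 clusters every contig of the table met it. RSEM divides fragments that align to several contigs among them by estimated abundance, so a contig can gain or lose fragments to its neighbours, and contigs of 1 cluster are not independent. The FPKM values of all contigs of a cluster were therefore also summed. The clusters were picked for holding a contig that met the rule. Such contigs held a median of 75.5% of the leaf sum, 64.9% of the stem sum and 50.2% of the root sum. The sums are thus not independent of the rule, and no share over all clusters was computed. The sums of 39 of the 65 clusters (60.0%) were still more than 8-fold lower in root than in leaf and stem. Another 17 were between 4 and 8-fold lower by the smaller fold and 9 were below 4-fold. For 4 clusters, CL9130, CL9851, CL2635 and CL11528, root exceeded leaf or stem in the sum. The smaller fold of the sums ranged from 0.58 to 117, with a median of 8.79.

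**Figure D4:**
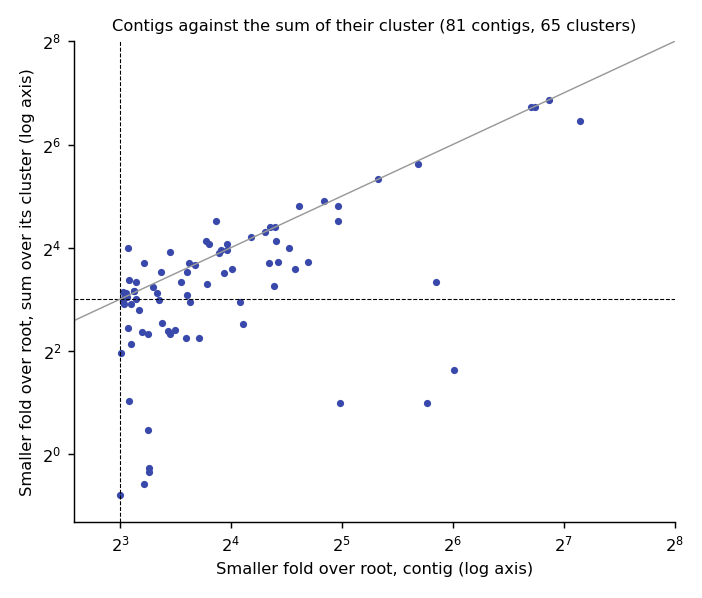
Smaller fold over root of each of the 81 contigs (horizontal axis) against the smaller fold of the FPKM sum over all contigs of its cluster (vertical axis), both on log axes. Dashed lines mark 8-fold and the grey line marks equality. The sums of 39 of the 65 clusters lie above the dashed horizontal line, and the lowest sum is at 0.58.

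Of the 3 clusters taken for their number of members, 2 were uniform and 1 was mixed. CL6555 has 3 contigs, all of which met the rule. Contig1 had 104 FPKM in leaf and 75 in stem, against 3.69 in root, Contig2 had 107, 54.0 and 4.39, and Contig3 had 129, 61.8 and 6.64. Both contigs of CL4607 met it, Contig1 with 1063 FPKM in leaf and 232 in stem, against 2.17 in root, and Contig2 with 848, 249 and 2.39, and their sum had a smaller fold of 106. CL1311 was the mixed one. Its Contig3 and Contig5, the latter with 895 FPKM in leaf and 428 in stem, against 19.9 in root, carried most of its leaf and stem sums, and Contig1 and Contig2 were at 0.58 and 0.08 FPKM in root. Its Contig4, however, was at 22.9 FPKM in leaf and 286 in stem, against 56.8 in root, and was thus lowest in leaf. In the 15 clusters with at least 2 members, the log2 ratio of leaf to stem differed between the members by a median of 0.22 and at most by 1.11.

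In other clusters a contig of the 202 stood beside one that was abundant in root, and the following examples were chosen after their values were seen. CL7271.Contig1 held 65.7% of the leaf sum of its cluster and 2.01% of the root sum. Its only neighbour, CL7271.Contig2, had 1592 FPKM in leaf and 703 in stem, against 389 in root, so that the smaller fold of the sum was 3.07 instead of the 64.6 of Contig1. In CL5053, Contig3, with 125 FPKM in leaf and 97.2 in stem, against 1.78 in root, and Contig4, with 91.9, 59.6 and 1.89, both met the rule. The neighbouring Contig1, with 211, 193 and 142 FPKM, and Contig2, with 160, 152 and 108, were within 2-fold in all tissues, and the sum of the cluster had a smaller fold of 1.98. CL9130.Contig1, the unigene nearest to the threshold, had a neighbour in Contig2 with 2.67 FPKM in leaf and 0.84 in stem, against 32 in root. CL11528.Contig2 had 42.2 FPKM in leaf and 17.8 in stem, against 1.86 in root, while CL11528.Contig1 had 4.80, 60.3 and 54.5. Whether such neighbours are distinct genes or a division of shared fragments was not tested.

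The neighbours were also counted as a whole. The 65 clusters hold 146 contigs that did not meet the rule, of which 70 had at most 1 FPKM in root, with 26 listed at 0 there. Of the 44 above 0 in root, 25 exceeded 8 times root in both leaf and stem, which a low root value makes easy to reach. No ratio to root can be given for the 26 at 0, of which 13 were above 0 in both leaf and stem. Of the 146, 71 were shared unigenes, and their median smaller fold was 3.22, against 1.09 over all shared unigenes. It exceeded 4 for 29 of the 71 and was at most 2 for 28. Root was the highest of the tissues for 7 of the 146, a count that leaves out neighbours such as CL7271.Contig2 and CL11528.Contig1. The shares of all unigenes to set beside the 7 and the 25 were not computed, so these counts are descriptive. For the 70 a background can be given. Only 41,516 of all 88,591 unigenes exceeded 1 FPKM in root, so most unigenes were at or below that level. The 70 of 146 therefore do not show that neighbours were low in root more often than unigenes in general.

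The mirror selections show how usual such a pattern was. By the same criterion, 238 shared unigenes (0.971%) were more than 8-fold lower in leaf than in root and stem, and 15 (0.0612%) were more than 8-fold lower in stem than in leaf and root. Few unigenes were thus low in stem alone, while the numbers low in root and low in leaf were of the same order. Their order depended on the fold required and on the scaling. At 2-fold, 4,408 unigenes were lower in root and 1,979 lower in leaf, while at 64-fold the numbers were 9 and 4. Median-ratio scaling reversed the order at 2-fold, to 1,966 lower in root and 2,695 lower in leaf, and widened the difference at 8-fold, to 132 lower in root and 321 lower in leaf. Stem stayed the tissue with the fewest at each of the thresholds and scalings tried.

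**Figure D5:**
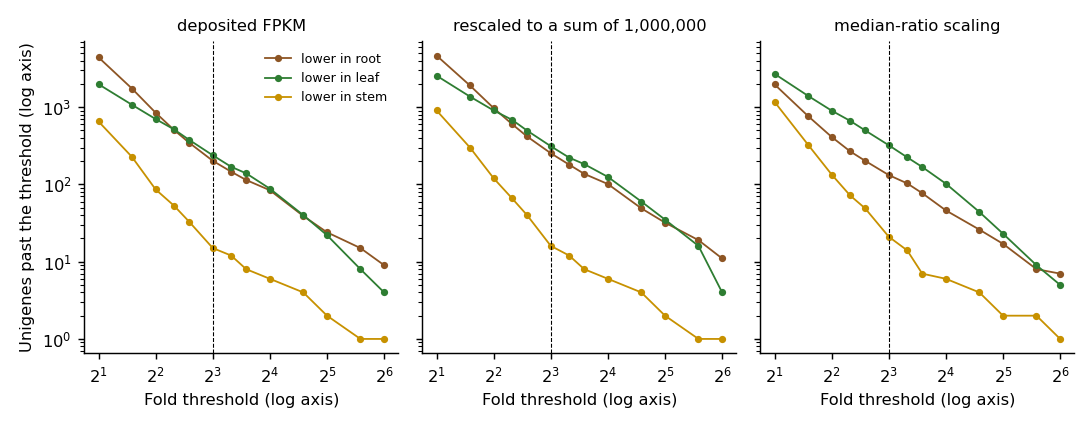
Number of shared unigenes (log axis) in which the named tissue is lower than both others by more than the fold on the horizontal axis (log axis), for deposited FPKM, TPM and median-ratio scaling, with the filter of 1 applied after scaling. At 8-fold (dashed line) the numbers lower in root are 202, 253 and 132.

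None of the 7 unigenes that the study cloned for terpenoid synthesis belonged to the 202, which hold 0.824% of the shared unigenes, so a count of 0 among 7 is the usual outcome. ArHDS (Unigene5791), which makes the last intermediate of the MEP pathway, came closest by the smaller fold, with 142 FPKM in leaf and 70.6 in stem, against 32.4 in root, a smaller fold of 2.18. ArDXS (Unigene11038), the entry enzyme of that pathway, had 4.16 FPKM in leaf and 71.8 in stem, against 2.01 in root. It was 35.7 times root in stem and 2.07 times root in leaf, and so passed in stem alone. ArHMGR2 (CL11002.Contig2), an enzyme of the mevalonate pathway, had 8.08, 10.7 and 175 FPKM and was highest in root. ArHMGR1, ArMVD, ArDXR and ArHDR had smaller folds of 0.17, 0.98, 1.19 and 1.91.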

How the data were processed

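Leaf, root and stem of 5 pooled mature plants were sequenced as 1 library each. The labels name a miRNeasy kit for the RNA, and the methods of the paper an RNA Plant Kit. After quality filtering, the authors built unigenes de novo with Trinity and TGICL, aligned the reads back to them with Bowtie2 and quantified them with RSEM. The deposited unit is FPKM with 2 decimals. Neither fragment counts nor lengths of unigenes entered here, so the counting error of single values is unknown.

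The 202 unigenes and all summaries were chosen with earlier results of these data known. Ratios were taken from FPKM without a pseudocount, unless stated. Unigenes named in the text are those with the highest level, the largest folds, the most extreme and most even ratios of leaf to stem, the highest root values, those next to the thresholds, the 3 clusters with most members (ties broken by level) and the 7 cloned ones. Others are said to have been chosen after their values were seen. Alternatives tried were TPM and median-ratio scaling, other FPKM minimums, pseudocounts of 0.1 and 1, and sums over clusters. The computations ran in Python 3.11.15 with pandas 2.3.3, numpy 2.4.6 and scipy 1.17.1, figures were drawn with matplotlib 3.10.9, and the scripts were tested on simulated data.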

Additional observations from a re-analysis of the deposited data

How the results depend on the processing

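The number of unigenes more than 8-fold lower in root moved by over 1.5 times with the filter, the pseudocount of 1 and median-ratio scaling. It was 375 with a minimum of 0.5 FPKM, 104 with a minimum of 2 FPKM, 1,589 with any value above 0, 127 after adding 1 FPKM to each value and 132 after median-ratio scaling. TPM gave 253, a pseudocount of 0.1 gave 186 and sums over clusters gave 188. With TPM and median-ratio scaling the filter of 1 was applied after scaling. Both raise the root values, since the root library sums to 684,729 FPKM and median-ratio scaling divides it by 0.755. Unigenes below 1 FPKM in root could thus enter, so these 2 counts mix a looser filter on root with the change of the folds. Of the 202 unigenes, 182 met the rule with TPM and 109 with median-ratio scaling. The unigenes of the 202 that were named by the listed criteria number 31. A smaller fold above 8 was kept by 25 of them with TPM, 19 with median-ratio scaling and 20 with a pseudocount of 1. The 31 include unigenes named for lying just inside the 8-fold line or for the lowest root values. The numbers kept therefore depend in part on how the names were chosen. With a minimum of 2 FPKM the median log2 ratio of leaf to stem was 1.05, the median ratio of leaf to root 38.3 and that of stem to root 18.3. Median-ratio scaling gave a median ratio of stem to root of 13.9. The share of clusters whose sum met the rule was 39.6% with any value above 0 and 75% with a pseudocount of 1. The median log2 ratio of leaf to stem stayed positive in each alternative run. TPM and median-ratio scaling shift this ratio by only -0.03 and -0.02, and every run selected by a like rule from the same libraries. The lean towards leaf was therefore not tested by these runs. No replicate could be left out and no paired analysis was possible because each tissue has 1 library. Without counts, the precision of root values near 1 FPKM is unknown.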
